A study of Caenorhabditis elegans with 28 samples.

Results

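miR-235 is the only C. elegans relative of the miR-92 family of animal miRNAs, and it was read here as its 2 mature arms, miR-235-3p and miR-235-5p, out of 437 miRNA arms counted in 28 small RNA libraries. Both arms were chosen by name, and both were used in every library. Of the libraries, 14 came from whole larvae of HW3527, a strain that carries the ebax-1(tm2321) allele in all cells, and 14 came from whole larvae of the wild-type strain N2. The growth temperature was 25 °C, and every hour between 18 and 31 h was covered by 1 library per strain. No replicate cultures are named in the labels. A p-value therefore rests on how far single libraries scatter about a fitted curve, a scatter that can be purely technical, and strain and culture cannot be told apart. In whole larvae, fewer cells that contain a miRNA and less of it per cell cannot be told apart either.

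A miRNA hairpin is cut into a duplex of 2 arms, of which the guide is loaded into Argonaute and kept while the passenger is usually discarded, so that the passenger follows production more closely than the guide does. EBAX-1 brings substrates to a Cullin-RING ubiquitin ligase and is the worm counterpart of mammalian ZSWIM8 and fly Dora, which takes part in the decay of miRNAs that are directed to it by their targets. In mammals, members of the miR-92 family are known for their part in cell proliferation. In C. elegans, mir-235 is known to keep blast cells quiescent in larvae that arrest without food, downstream of insulin signalling, and it acts in the hypodermis. Larval development in worms runs in moult cycles, and many epidermal transcripts rise and fall once per cycle.

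In the WBcel235 annotation, the gene (cel-mir-235, WBGene00003328) lies on the minus strand of chromosome I from 6162291 to 6162387. Its 5p arm covers 6162347 to 6162369, a length of 23 bases, and its 3p arm 6162306 to 6162327, a length of 22 bases. No annotated gene overlaps the hairpin, so it is neither exonic nor intronic of another gene. The nearest protein-coding genes are T09B4.6, 3027 bp to the left, and T09B4.8, 2332 bp to the right, both on the same strand. The authors aligned reads to another build, ce10, and these positions come from the annotation alone.

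The libraries held 4970366 to 13223782 counts in the mutant and 4938126 to 11683557 in wild type. Those of 28, 29 and 31 h were the shallowest of the mutant, with at most 6125674 counts, and also held the least miR-62, a miRNA made from a spliced intron, at normalised counts of 301 to 754 against at least 1235 in the other mutant libraries. The tests that include them were also run without them. Values below are normalised counts, which are counts divided by the library total and multiplied by the mean total, or the deposited log2 of the normalised count plus 8. The genotypes are those of the labels, because mRNA was not analysed here.

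The 3p arm was the guide in both strains. It ranked between 10 and 18 among all arms in the mutant libraries and between 15 and 40 in those of wild type. It made up 2.70% ± 0.653 of all counts in the mutant (SD, n = 14 hours) and 0.983% ± 0.569 in wild type (SD, n = 14 hours). By mean normalised count over 14 hours, the mutant level of 225689 ± 54611 stood at rank 14, next to miR-66-5p with 227752 and miR-90-3p with 221673. The wild-type level of 82112 ± 47529 stood at rank 22, next to miR-86-5p with 84443 and miR-84-5p, a let-7 relative, with 80478. These neighbours differed from miR-235-3p by less than its own SD over hours.

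In the mutant, miR-235-3p had normalised counts of 138581 at 18 h, 150009 at 19 h, 220358 at 20 h, 219463 at 21 h, 240712 at 22 h, 219616 at 23 h and 160615 at 24 h. It then had 188605 at 25 h, 222168 at 26 h, 223414 at 27 h, 318434 at 28 h, 289857 at 29 h, 284801 at 30 h and 283007 at 31 h. The mutant series thus climbed with 1 dip around 24 h and ended on a high plateau. In wild type, the arm had 123949 at 18 h, 172382 at 19 h, 91334 at 20 h, 36312 at 21 h, 18141 at 22 h, 44601 at 23 h and 109447 at 24 h. It then had 145884 at 25 h, 107823 at 26 h, 87595 at 27 h, 70120 at 28 h, 25829 at 29 h, 27959 at 30 h and 88193 at 31 h. The wild-type series showed crests at 19 and 25 h and troughs at 22 and 29 h, and its highest library held 9.50 times as much as its lowest, against 2.30 times in the mutant.

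**Figure D1:**
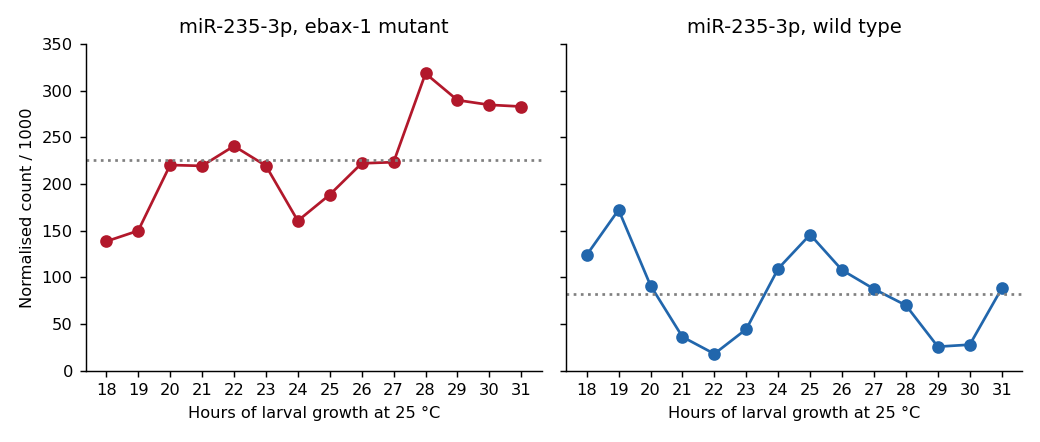
Normalised count of miR-235-3p (axis in units of 1e3) in each library of the ebax-1 mutant (left panel) and of wild type (right panel) by hour of growth, with the dotted line at the mean of the strain. Mutant libraries lie between 138581 and 318434 and climb, whereas those of wild type lie between 18141 and 172382 and pass through 2 crests.

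Of the 14 mutant libraries, 11 lay above the highest library of wild type. The exceptions were those of 18, 19 and 24 h, and wild-type libraries above the lowest mutant one were those of 19 and 25 h. From one hour to the next, miR-235-3p moved by a median of 0.13 log2 in the mutant and 0.92 in wild type. Its steepest hourly fall was −0.45 log2 in the mutant, between 23 and 24 h, and −1.44 in wild type, between 28 and 29 h, where the library of the later hour held 36.8% of the level of the earlier. Its steepest hourly rise was 0.56 log2 in the mutant, between 19 and 20 h, and 1.66 in wild type, between 30 and 31 h. No hourly step of the mutant exceeded 1 log2, against 5 of 13 in wild type.

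The first question was whether the level of either arm depended on EBAX-1. Because the mutant develops late, mutant libraries of 21 to 31 h were matched to wild-type libraries of 18 to 28 h, a lag of 3 h. Over these 11 matched hours, miR-235-3p averaged 240972 ± 47810 in the mutant and 91599 ± 47159 in wild type (SD, n = 11 hours each). It was higher in the mutant at 11 of 11 matched hours. Averaged over these hours the fitted log2 difference was 1.61 ± 0.127 (SE), or 3.05-fold, and the adjusted p was 1.79e-04 with limma, from an F test of all strain terms of a spline over matched hours with Benjamini-Hochberg adjustment over 406 arms. In that test 16.5% of all arms were called at the threshold of 0.01, and 5.67% were called and higher in the mutant. Without the mutant libraries of 28, 29 and 31 h the difference was 1.69 and the limma adjusted p 0.0151, which no longer passed the threshold, within a range of 2.63e-44 to 0.0151 over the alternatives.

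The difference was not of equal size at all hours. It was smallest when the wild-type level crested, at 0.48 log2 (240712 in the mutant at 22 h, 172382 in wild type at 19 h). It was greatest when wild type was at its trough, at 3.38 log2 (188605 in the mutant at 25 h, 18141 in wild type at 22 h), a fold of 10.4. As amounts, the excess of the mutant ran from 68330 at the first of these hours to 212887 at the last matched hour, and 170464 at the wild-type trough. The 6 spline terms by which the difference could vary over hours did not pass the threshold in limma (adjusted p = 0.181).

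For the passenger, miR-235-5p, the strains were not told apart. It averaged 20.1 ± 18.4 in the mutant and 16.3 ± 16.1 in wild type over the matched hours (SD, n = 11 hours each). Its mean log2 difference was 0.19 ± 0.126 (SE) with a limma adjusted p of 0.498, and 0.23 with 0.651 without the mutant libraries of 28, 29 and 31 h. It was higher in the mutant at 5 of 11 matched hours and lower at 6, and single hours ran from −0.35 to 0.88 log2. The interval that this SE gives does not exclude a small difference. Whether the arm was called depended on the match of hours. At equal clock hours its mean difference was 0.18 log2, close to the 0.19 at matched hours. The F test of all strain terms, which reads timing too, then gave a limma adjusted p of 1.71e-05. Single clock hours ran from −2.9 to 2.2 log2, so that p is no evidence of a difference in mean level. Over the alternatives the adjusted p ran from 1.71e-05 to 0.825.

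**Figure D2:**
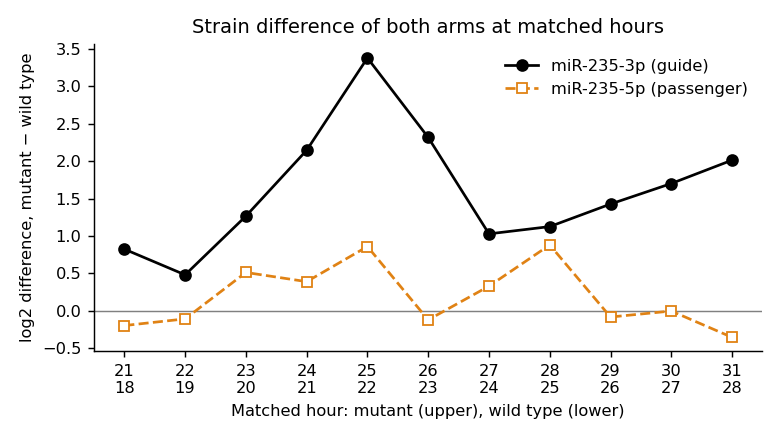
log2 difference (mutant minus wild type) of miR-235-3p and miR-235-5p at each of the 11 matched hours, with the mutant hour written above the wild-type hour. The guide lies between 0.48 and 3.38 at every hour, while the passenger scatters around 0, between −0.35 and 0.88.

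The passenger was a rare arm, so its reads were few and counting error was large. In the mutant, libraries of 18 to 31 h held 8, 75, 21, 22, 9, 7, 7, 15, 45, 61, 24, 7, 6 and 0 reads of miR-235-5p. In wild type, libraries of the same hours held 35, 10, 3, 3, 8, 56, 52, 25, 12, 9, 2, 1, 27 and 49 reads. Both series went up and down by more than their counting error, with high values at 19 and 26 to 28 h in the mutant and at 23 to 24 and 30 to 31 h in wild type. The mutant library of 27 h had a normalised count of 57.1 with an exact Poisson interval (95%) of 43.7 to 73.4, and that of 24 h had 6.01 with 2.42 to 12.4. The wild-type library of 23 h had 47.2 with 35.6 to 61.2, and that of 21 h had 2.68 with 0.553 to 7.84. The 0 reads of the mutant at 31 h allow up to 3 counts (a one-sided limit), a normalised count of 4.09, and the upper end of the 2-sided interval was 5.03. These intervals and this floor cover counting error only.

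**Figure D3:**
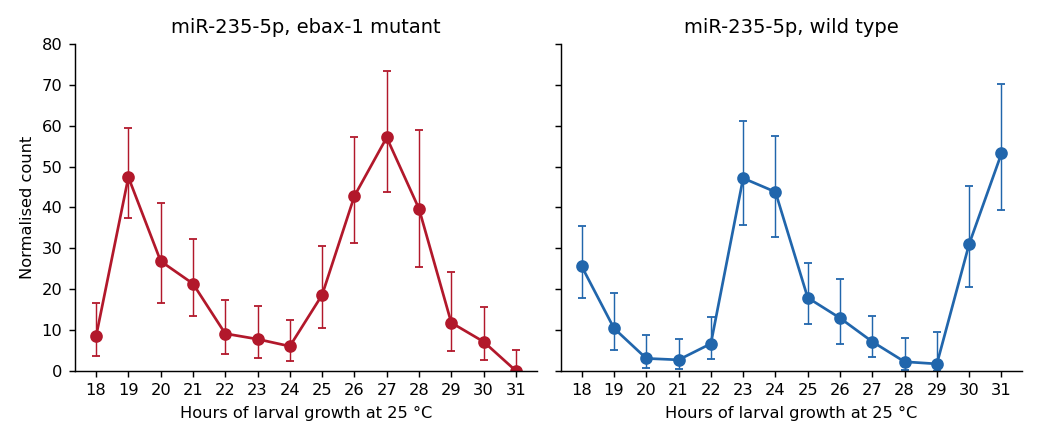
Normalised count of miR-235-5p in each library of the ebax-1 mutant (left panel) and of wild type (right panel) by hour of growth, with exact Poisson intervals (95%) that cover counting error only. The high points are 47.4 at 19 h and 57.1 at 27 h in the mutant, and 47.2 at 23 h and 53.2 at 31 h in wild type.

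The second question was whether the arms cycled over the hours. For each strain, a 7 h cosine wave on top of a straight trend was fitted to its 14 libraries, and the wave was tested. On the log2 scale, miR-235-3p had an amplitude of 0.27 ± 0.059 in the mutant (SE, limma adjusted p = 0.0366) and 1.31 ± 0.159 in wild type (limma adjusted p = 3.96e-04). From crest to trough of the fitted curve, the log2 amplitude amounts to a fold of 1.46 in the mutant and 6.17 in wild type. The rhythm test called 2.81% of arms in the mutant and 7.91% in wild type. In the mutant the fitted slope was 0.06 ± 0.011 log2 per hour (SE), against 0.01 ± 0.029 in wild type. Without the mutant libraries of 28, 29 and 31 h the slope in the mutant was 0.05 ± 0.014 and the amplitude 0.30 (limma adjusted p = 0.0650).

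miR-235-5p cycled in both strains. Its log2 amplitude was 1.15 ± 0.160 in the mutant (SE, limma adjusted p = 0.00237) and 1.19 ± 0.153 in wild type (limma adjusted p = 5.26e-04), folds of 4.96 and 5.24 from crest to trough of the fitted curves. With an edgeR quasi-likelihood test on the counts, added after seeing that the arm is rare, the amplitude was 1.69 in the mutant (adjusted p = 0.00227) and 1.94 in wild type (adjusted p = 1.04e-04), since the pseudocount of 8 compresses low values. The call in the mutant was lost with a pseudocount of 1 (amplitude 1.73, limma adjusted p = 0.0325) and with a period of 6 h (0.80, adjusted p = 0.514), in a range of 0.0012 to 0.514 over the alternatives. It was also lost when the mutant library of 22 h (limma adjusted p = 0.0101), 26 h (0.0101) or 27 h (0.0109) was omitted. Without those of 28, 29 and 31 h together the amplitude was 1.05 with an adjusted p of 0.00308.

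The difference in rhythm between the strains was then tested on all 28 libraries with 3 h taken off the mutant hours. This F test is of the cosine and sine terms together, so it reads the timing of the crest as well as the amplitude and is no test of the amplitude alone. For miR-235-3p the rhythm differed (limma adjusted p = 0.00461), and the amplitude in the mutant minus that in wild type was −1.04 ± 0.170 log2 (SE from both fits). Of 406 arms this test called 0.493%, which are miR-235-3p and miR-40-3p, a member of the mir-35 family that acts in the embryo, and 31 arms had an unadjusted p under 0.05. The call depended on the processing and on the libraries used, and was lost under 7 of 14 alternatives. It was lost with TMM factors (adjusted p = 0.0102), with DESeq2 size factors (0.0129), with a pseudocount of 1 (0.0131), and with a period of 6 h (0.653) or 8 h (0.143). In the 22 matched libraries alone the difference was −0.97 with an adjusted p of 0.0510, and without the mutant libraries of 28, 29 and 31 h it was −1.01 with 0.0373, in a range of 0.00154 to 0.653 over the alternatives. Leaving out single libraries ended the call in 12 of 28 fits, those without the mutant libraries of 21, 22, 23, 25, 26, 29 or 31 h and those without the wild-type libraries of 21, 22, 25, 29 or 31 h, with differences between −1.18 and −0.89 over all 28 fits and adjusted p-values up to 0.0302. For miR-235-5p the difference in amplitude was −0.04 ± 0.222 log2 (SE), and the F test of its rhythm gave a limma adjusted p of 0.959.

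**Figure D4:**
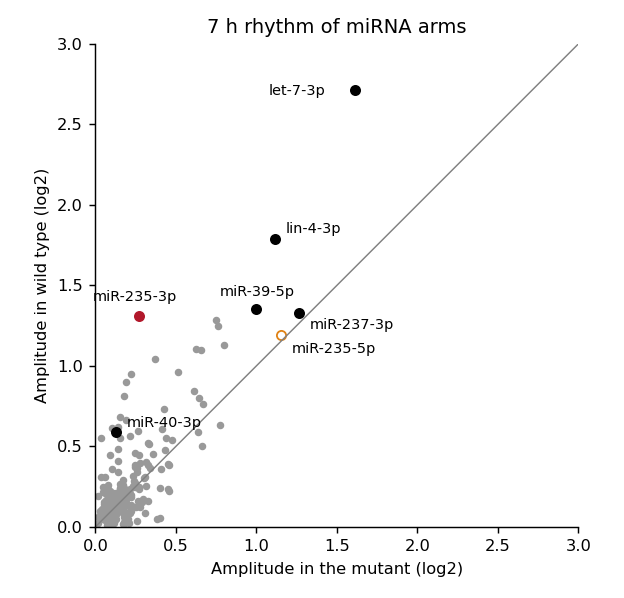
Fitted log2 amplitude of a 7 h rhythm in the mutant (x axis) and in wild type (y axis) for each arm that averaged at least 50 normalised counts (grey points), with the line of equal amplitude and 6 of these arms labelled, to which miR-235-5p (open circle) was added. miR-235-3p stands at 0.27 in the mutant and 1.31 in wild type, far above the line, and miR-235-5p stands at 1.15 and 1.19, close to it.

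Among arms averaging at least 50 normalised counts in the strain, the log2 amplitude of miR-235-3p ranked 45 of 203 in the mutant and 5 of 211 in wild type. The median amplitude of these arms was 0.16 in the mutant and 0.18 in wild type. The arms with a larger amplitude in wild type were let-7-3p, lin-4-3p, miR-39-5p and miR-237-3p, all of them passenger arms. let-7-3p had an amplitude of 1.61 in the mutant and 2.71 in wild type, and lin-4-3p had 1.11 in the mutant and 1.79 in wild type. miR-39-5p had 0.996 in the mutant and 1.35 in wild type, and miR-237-3p had 1.26 in the mutant and 1.33 in wild type. miR-235-3p was thus the guide arm with the largest amplitude in wild type among the arms at this level, and its mean level of 82112 exceeded those of the 4 passengers, which ran from 113 to 1053.

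On the linear scale the question is one of amounts. As a share of the strain's own mean, the amplitude of miR-235-3p was 0.174 ± 0.045 in the mutant (SE, limma adjusted p = 0.0708) and 0.722 ± 0.087 in wild type (limma adjusted p = 5.02e-04). The linear test called 2.37% of arms in the mutant and 11.8% in wild type. In normalised counts, these amplitudes are 39216 ± 10246 in the mutant and 59273 ± 7160 in wild type. The strain difference was not called when both strains were divided by 1 common mean, with amplitudes of 0.255 in the mutant and 0.385 in wild type, a difference of −0.13 and a limma adjusted p of 0.961 for the cosine and sine terms. When each strain was divided by its own mean, an alternative added after seeing the data, the difference was −0.55 with a limma adjusted p of 0.00655, in a range of 0.00655 to 0.992 over the alternatives. This test called 0.8% of 250 arms. The guide thus differed in rhythm relative to its own mean, and the test on amounts did not pass.

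miR-235-5p had a relative amplitude of 1.09 ± 0.155 in the mutant (SE, limma adjusted p = 0.00558) and 1.14 ± 0.179 in wild type (limma adjusted p = 0.00188). In normalised counts, these are 23.7 ± 3.36 in the mutant and 21.5 ± 3.39 in wild type. The difference between the strains, relative to the common mean, was 0.11, and the F test of the rhythm gave a limma adjusted p of 0.961. No arm was called in the linear test of a strain difference by limma (0% of 257 arms, 10 arms with an unadjusted p under 0.05), and no other tool was run for it. The mutant call of miR-235-5p was lost in 8 of 14 fits that left out 1 library, those of 18, 22 and 24 to 29 h, with adjusted p-values up to 0.0165, and without the libraries of 28, 29 and 31 h the relative amplitude was 0.976 with 0.0119.

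The timing of the crests was read from the same fits. In the mutant the guide crested at 21.4 ± 0.26 h (SE) and again 7 h later, and the passenger at 19.9 ± 0.15 h. In wild type the guide crested at 18.6 ± 0.13 h and again at 25.6 h, and the passenger at 24.1 ± 0.15 h. The guide thus followed the passenger by 1.51 ± 0.299 h in the mutant and by 1.49 ± 0.201 h in wild type (SE from both fits). These delays differed by less than their errors, but each SE treats the arms as independent although both were read from the same libraries. The guide crested later in the mutant than in wild type by 2.802 ± 0.291 h and the passenger by 2.78 ± 0.213 h, both near the 3 h used to match the strains. The crest of the mutant guide comes from a rhythm that did not pass the test.

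Hour by hour, only the directions of the arms were counted, whatever the size of a step. Some steps were very small, such as −0.006 log2 for the mutant guide and −0.046 for the wild-type passenger, both from 20 to 21 h. The signs alone therefore do not show that the arms moved together. Of 13 hourly steps in the mutant, both arms went up in 4 and down in 6, and the guide went up while the passenger went down in 3. Of 13 steps in wild type, both arms went up in 3 and down in 6, the guide went up while the passenger went down in 3, and the reverse was seen in 1, from 21 to 22 h. Over the 14 libraries of a strain, the Pearson correlation of the log2 values of the arms was −0.09 in the mutant and 0.23 in wild type, a description in which both arms share the depth of each library.

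The third question was how the ratio of guide to passenger changed. Counts summed over 14 libraries gave 2827818 guide and 307 passenger reads in the mutant, a ratio of 9211 with an exact Poisson interval (95%, from the passenger count) of 8236 to 10335. In wild type the sums were 1270517 and 292 reads, a ratio of 4351 with an interval of 3880 to 4897. These intervals cover counting error only and are narrower than the spread between libraries. The log2 ratio, taken with the pseudocount of 8, was higher in the mutant at 11 of 11 matched hours, by 0.25 to 2.52. The fitted mean of this difference was 1.42 ± 0.124 (SE), or 2.67-fold. A limma test of that mean gave an adjusted p of 4.45e-08 over 95 hairpins in which neither arm averaged under 10 normalised counts. In 23.2% of these hairpins the ratio was called higher in the mutant by this test, and the median difference over all of them was 0.04. The arms were called above by the F test of all strain terms, which for the ratio gave a limma adjusted p of 3.19e-06. For miR-235-3p the limma test of the mean gave an adjusted p of 3.30e-06, so the p-values of the ratio and the guide are not far apart like for like. Of hairpins called higher, mir-39 with 3.77, mir-35 with 3.44, mir-40 with 3.34, mir-36 with 3.21, mir-37 with 2.60 and mir-230 with 1.49 had a greater difference than mir-235. Without the mutant libraries of 28, 29 and 31 h the difference of miR-235 was 1.47.

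**Figure D5:**
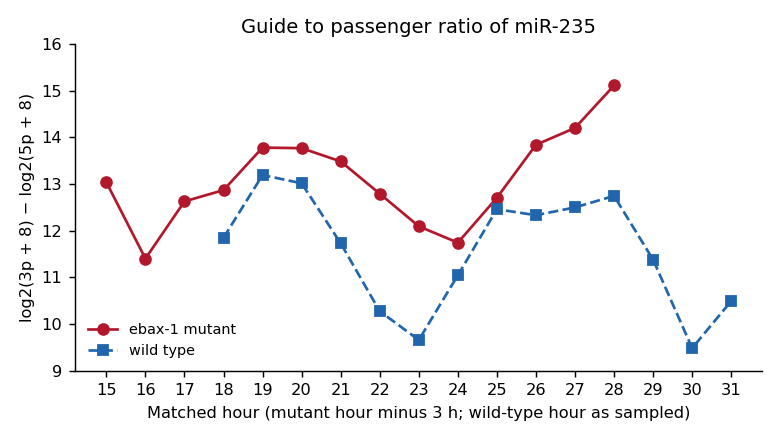
log2 ratio of guide to passenger of miR-235, with 8 added to both normalised counts, by matched hour, which is the mutant hour minus 3 h (solid line) or the wild-type hour (dashed line). The mutant lies above wild type by 0.25 to 2.52 at every shared hour, and both lines go down and up once between matched hours of 19 and 27 h.

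Single libraries ranged widely in this ratio. On the linear scale there were 3165 guide reads per passenger read in the mutant at 19 h and 39996 at 30 h, and at 31 h at least 69147, taken at the floor of 3 passenger counts. In wild type there were 901 at 30 h. At 28 h the wild-type ratio was 31722, but with 2 passenger reads its exact Poisson interval (95%) ran from 8781 to 261935. The ratio cycled in both strains, with a log2 amplitude of 1.13 ± 0.191 in the mutant (SE, limma adjusted p = 0.00188) and 1.55 ± 0.188 in wild type (limma adjusted p = 1.48e-05). The test called 15.8% of hairpins in the mutant and 22.1% in wild type. The mutant call was lost with a pseudocount of 1 (amplitude 1.65, limma adjusted p = 0.0131) and with a period of 6 h (0.69, adjusted p = 0.300), in a range of 7.37e-04 to 0.300 over the alternatives. Without the mutant library of 27 h the amplitude was 1.02 and the adjusted p 0.0101, and without those of 28, 29 and 31 h it was 1.07 with 7.37e-04. The amplitude in the mutant minus that in wild type was −0.43 ± 0.268 log2 (SE). The F test of the difference in rhythm, timing included, gave a limma adjusted p of 0.573 and called 0% of 95 hairpins (4 with an unadjusted p under 0.05, no other tool run).

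Other miRNAs tied to EBAX-1 were read from a list of 12 arms, made up of 8 mir-35 family arms (3p, miR-35 through miR-42, of which miR-41-3p and miR-42-3p were the rarer arms of their hairpins in wild type), miR-71-5p, both arms of miR-788 and miR-247-3p. The study places miR-35 through miR-41 in 1 cluster, so 7 of the 12 arms do not count as separate loci. Part of this list was chosen by the study on these samples, so its direction is not independent evidence. In the same limma test, which called 5.67% of all arms higher and 10.8% lower in the mutant, 9 of its 12 arms were higher in the mutant, 1 was lower and 2 were not called, and the median log2 difference was 2.48 beside −0.07 over all 406 arms. The difference of miR-35-3p was 3.48 and that of miR-42-3p 2.09, both beyond the 1.61 of miR-235-3p. The difference of miR-71-5p, which is known for its part in lifespan and stress resistance, was 0.67 (limma adjusted p = 0.00404), with an average of 418532 in the mutant and 250468 in wild type. miR-788-5p was lower by a log2 difference of −0.72. The study places the EBAX-1-dependent decay of miR-788 and miR-247 late in larval development and shows it in a separate, later time course. The matched hours here end at 28 h of wild type, before the fall in level that the study describes. In rhythm, 0 of the 12 arms were called in the mutant and 7 in wild type by limma, beside 2.81% of all arms in the mutant and 7.91% in wild type. A call in wild type without a call in the mutant is no test of a difference. The limma test of a strain difference in rhythm called 1 of the 12 arms, miR-40-3p, beside 0.493% of all arms. miR-71-5p had an amplitude of 0.37 in the mutant and 1.04 in wild type, a difference that was not called (limma adjusted p = 0.0518).

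Epidermal timing miRNAs were read from a list of 6 arms, those of lin-4 and of let-7 and their relatives, which time the fates of hypodermal seam cells. Of these, 1 arm was higher in the mutant (5.67% of all arms), 1 was lower (10.8% of all arms) and 4 were not called, and the median log2 difference was −0.10. miR-237-5p, a lin-4 relative, had a difference of 0.74, and miR-84-5p, a let-7 relative, of −0.75. The rhythm test of limma called 0 of the 6 in the mutant, where let-7-5p had an amplitude of 0.64 and miR-237-5p of 0.30, and called lin-4-5p in wild type with an amplitude of 0.37.

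Single-tissue miRNAs were read beside these results. Of 5 markers, 0 were higher in the mutant (5.67% of all arms), 3 were lower (10.8% of all arms) and 2 were not called in the limma test of strain. Lower were miR-1-3p of muscle (−0.53), miR-60-3p of intestine (−1.11) and lsy-6-3p of neurons (−0.87), and not called were miR-124-3p of neurons (0.05) and miR-228-5p of glia (0.26). Their summed normalised count ran from 426017 to 702383 in the mutant and from 418025 to 835492 in wild type, and no marker was at 0 in any library. Most of this sum was miR-1-3p, with means of 468887 in the mutant and 598095 in wild type. The sum therefore says little about intestine or neurons. The part of tissue make-up in the level of miR-235-3p was not tested.

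Arms whose log2 values followed each member over the 14 libraries of a strain were found by Pearson correlation among arms averaging at least 50 normalised counts. These values share the depth and the age of each library and are given as a description. In the mutant, the arms most like miR-235-3p were miR-78 (0.82), miR-4812-5p (0.81), miR-246-3p (0.79), miR-5592-3p (0.77) and miR-358-3p (0.77). In wild type, they were miR-239a-3p (0.79), miR-1822-5p (0.73), miR-1020-3p (0.72), miR-60-5p (0.65) and miR-71-3p (0.65). The 2 sets of 5 arms had no arm in common.

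For miR-235-5p, the arms most like it in the mutant were miR-53-5p (0.81), miR-52-5p (0.76), miR-74-5p (0.76), miR-73-5p (0.76) and lin-4-5p (0.74). In wild type they were miR-50-3p (0.88), lin-4-5p (0.78), miR-799 (0.70), miR-1830-3p (0.69) and miR-58a-3p (0.68). lin-4-5p was in both sets. Its fitted crest came at 19.6 h in the mutant and 23.8 h in wild type, beside 19.9 h in the mutant and 24.1 h in wild type for miR-235-5p.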

How the data were processed

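Small RNAs of whole larvae were sequenced as single-end reads. The authors trimmed adapters, aligned reads with Bowtie through QuasR to ce10 and deposited whole-number counts per mature miRNA arm. Their versions are not stated in the sources at hand. The deposited log2 values are counts scaled to the mean library total with a pseudocount of 8, and were recomputed from the counts within 0.0005. So scaled, an arm is read as its share of a library.

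Strain and hour came from the labels, and the 3 h lag of the mutant from the methods of the study, which drew it from mRNA not used here. limma 3.58.1 in R 4.3.3 fitted all arms: strain, a 6-component B-spline over matched hours and their interaction in 22 libraries, with 8 residual degrees of freedom, and a trend plus 7 h cosine in 14 or 28 libraries. Benjamini-Hochberg adjusted p under 0.01 was the threshold, over 406 arms or over those with a read in a strain, a mean of at least 10 (linear scale) or 95 hairpins. The calculations were also run on simulated counts, scaled with TMM factors rather than the library total, and no result here rests on that run. edgeR 4.0.16 and DESeq2 1.42.0 served as alternatives, beside other lags, scalings, pseudocounts, spline sizes, periods and trends, the matched hour as a block, and each library left out in turn.

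Named were both arms, the 5 arms most like each per strain among those averaging at least 50 normalised counts, neighbours in level, arms of larger wild-type amplitude, and members of the 2 lists and the markers. miR-40-3p, miR-62 and the hairpins with a greater ratio change were singled out after their values were seen. The members and lists were chosen with earlier results of these data known.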

Additional observations from a re-analysis of the deposited data

Results flagged for a closer look

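The rhythm of miR-235-3p differed between the strains by a test of the difference itself, an F test of amplitude and timing together (limma adjusted p = 0.00461 in 28 libraries). Its log2 amplitude in the mutant minus that in wild type was −1.04 ± 0.170 (SE), with amplitudes of 0.27 in the mutant and 1.31 in wild type. The call was lost under 7 of 14 alternatives, among them TMM factors, DESeq2 size factors and a pseudocount of 1. It was also lost in 12 of 28 fits that left out 1 library. In the 22 matched libraries alone the difference was −0.97 with an adjusted p of 0.0510.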

How the results depend on the processing

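Of 192 values under other settings, 168 kept their side of the threshold, as did 322 of 346 with 1 library left out. A change of direction was counted only where a value was called, so these counts include uncalled values that changed sign. The log2 rhythm difference of miR-235-5p, for example, was −0.04 in 28 libraries and 0.06 in the 22 matched ones. The guide to passenger difference, called by a test of its mean alone, was called under all its alternatives, with 1.38 to 1.55. The strain effects of the arms were called by tests of all strain terms, except with the matched hour as a block. They are thus not compared like for like with the ratio. The strain effect of miR-235-3p lost its call only without the 3 shallowest mutant libraries (1.69). That of miR-235-5p was called at a lag of 0 h (0.18) and 1 h (0.34), where the phases are not matched. For the rhythm difference of miR-235-3p on the log2 scale, the call was lost with TMM factors (−1.04), DESeq2 size factors (−1.03), a pseudocount of 1 (−1.04), a period of 6 h (−0.77) or 8 h (−0.91), without those 3 libraries (−1.01) and in 22 libraries (−0.97), and with 1 library left out it ran from −1.18 to −0.89. On the linear scale with each strain's own mean it was called (−0.55). The rhythm test, which reads timing too, was also passed by miR-235-5p at a lag of 4 h (−0.0398) and by the ratio at 2 h (−0.43). With a pseudocount of 1 the mutant rhythms of miR-235-5p (1.73) and of the ratio (1.65) were no longer called. A period of 6 h ended the calls of wild-type rhythm for miR-235-3p (0.98 log2, 0.566 linear), miR-235-5p (0.92 log2, 0.842 linear) and the ratio (1.01), and of mutant rhythm for miR-235-5p (0.80 log2, 0.763 linear) and the ratio (0.69). The mutant rhythm of miR-235-5p on the linear scale was lost without the 3 libraries (0.976). With 1 library left out, it ran from 0.982 to 1.21 (log2 1.08 to 1.27), and that of the mutant ratio from 1.02 to 1.23. These causes were not tested. The matched hour as a block changed no call. Few passenger reads limit the values of miR-235-5p.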
